A study of Mus musculus with 12 samples.

Results

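Genes for glucose and lactate transport, glycolysis, the pyruvate dehydrogenase complex and the citrate cycle were examined in adult mouse cardiac myocytes cultured with connective tissue growth factor (CTGF) or without it. The 40 genes were chosen by gene symbol and fall into 4 groups by role: 4 transporters, 20 glycolysis genes, 4 pyruvate dehydrogenase genes and 12 citrate cycle genes. The array's annotation lists 70 probes for 37 of them, out of 45281 probes. A probe was used where its detection p was under 0.05 on at least 6 of the 12 arrays, which left 49 probes of 32 genes among the 8905 genes tested. Hk2, Gpi1 and Eno1, which have no listed probe under these symbols, were not analysed here. Slc16a1, Slc16a3, Pfkfb3, Aldoc and Ldhb had probes, none of which passed this detection limit in these cultures.

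Glucose enters a myocyte through membrane transporters and is trapped by hexokinase as glucose 6-phosphate. Glycolysis then splits the sugar and yields pyruvate, ATP and NADH. Pyruvate is reduced to lactate, which leaves through monocarboxylate transporters, or enters the mitochondrion, where pyruvate dehydrogenase turns it into acetyl-CoA for the citrate cycle. The adult heart draws most of its ATP from fatty acids, and is known to rely more on glucose in fetal life and under overload. CTGF, also named CCN2, is a secreted matricellular protein made in injured and fibrotic tissue.

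The cells came from hearts of C57BL/6 mice aged 12 to 16 weeks, by collagenase perfusion, and were plated on laminin in MEM with HBSS. Both groups were cultured for 48 h with 10 mmol/L BDM, an inhibitor of contraction, with BSA at 0.1% and with penicillin-G at 100 U/mL. The CTGF group had 200 nmol/L CTGF and the control group had none, with 6 arrays each. The labels do not say whether the 6 samples of a group came from separate hearts. The p-values thus set the group difference against the spread among these samples, and that spread may be technical. The sample descriptions number the groups in separate runs, so treatment and any slide or batch matching it cannot be told apart.

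Per array 14747 to 16390 probes were detected, and log2 fold changes had a standard error of 0.11 at the median. Of 11 measured cardiac myocyte markers, 3 fell with CTGF, among them the troponin gene Tnni3 by 0.89 ± 0.10 (SE) and the phospholamban gene Pln by 0.75 ± 0.13 on the log2 scale, and none rose. Their summed level, on the linear intensity scale, lay between 206090 and 232845 with CTGF and between 230158 and 244110 in controls. Of the markers of other heart cells, 11 of 11 endothelial markers fell, -1.63 being their median on the log2 scale, and their summed level was 2230 to 2613 with CTGF against 7453 to 8944 in controls. Among smooth muscle and pericyte markers 5 of 6 fell and 1 rose (summed level 2579 to 3161 against 4009 to 4738). Among fibroblast markers 3 of 6 fell (5154 to 6064 against 4079 to 7417), and among macrophage markers 1 of 4 fell (111 to 140 against 120 to 168). The macrophage sums lie near background, and the gene that fell, Lyz2, had no probe detected on all 12 arrays. The fibroblast sums overlapped. Of the 6 fibroblast markers, 3 had every CTGF array below every control array, where the background over all genes was 12.1%. By rule the 2 fibroblast markers with the largest called changes are named. With an array left out Pdgfra had log2 fold changes of -2.39 to -2.27 and Tcf21 of -1.51 to -1.37. Of the other fibroblast markers, 2 had positive log2 fold changes, up to 0.34, and were not called. Over all genes the background of falls was 21.6%. The endothelial gene Kdr and the leukocyte genes Ptprc and C1qa did not pass the detection limit. In such bulk RNA fewer cells of a type and less RNA per cell cannot be told apart, and the part of these cell types in the results below was not tested.

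With CTGF the glucose transporter gene Slc2a1 rose 2.16-fold, Hk1, Pfkp, Pkm and Dlat rose by smaller amounts, and 10 genes fell, 6 of them in the citrate cycle. Of the 32 measured genes, 5 were higher, 10 lower and 17 not called at a limma adjusted p under 0.05. That is 46.9% called, where the background over all 8905 genes was 46.6%. For rises the share was 15.6% against a background of 25.0%, and for falls it was 31.2% against 21.6%. CTGF and control levels were fully separate for 7 of the 32 genes, or 21.9%, against a background of 25.1%. The share of these genes called was thus close to that of the whole array. Each gene is given by its brightest probe, and by this only Slc2a1 changed at least 2-fold. The other probe of Idh3a gave -1.15 on the log2 scale, which is also over 2-fold. For the 17 genes not called, the 95% confidence intervals of the log2 fold change at the brightest probe lay between -0.46 and 0.53. These bounds do not cover other probes. Among the 17 genes, other probes of Fh1 and Pdhb were called at -0.83 and -0.52. A Pfkfb2 probe above background with CTGF alone was called at 0.29. The bound of -0.46 is that of Sucla2, detected on 2 of 6 CTGF arrays.

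**Figure D1:**
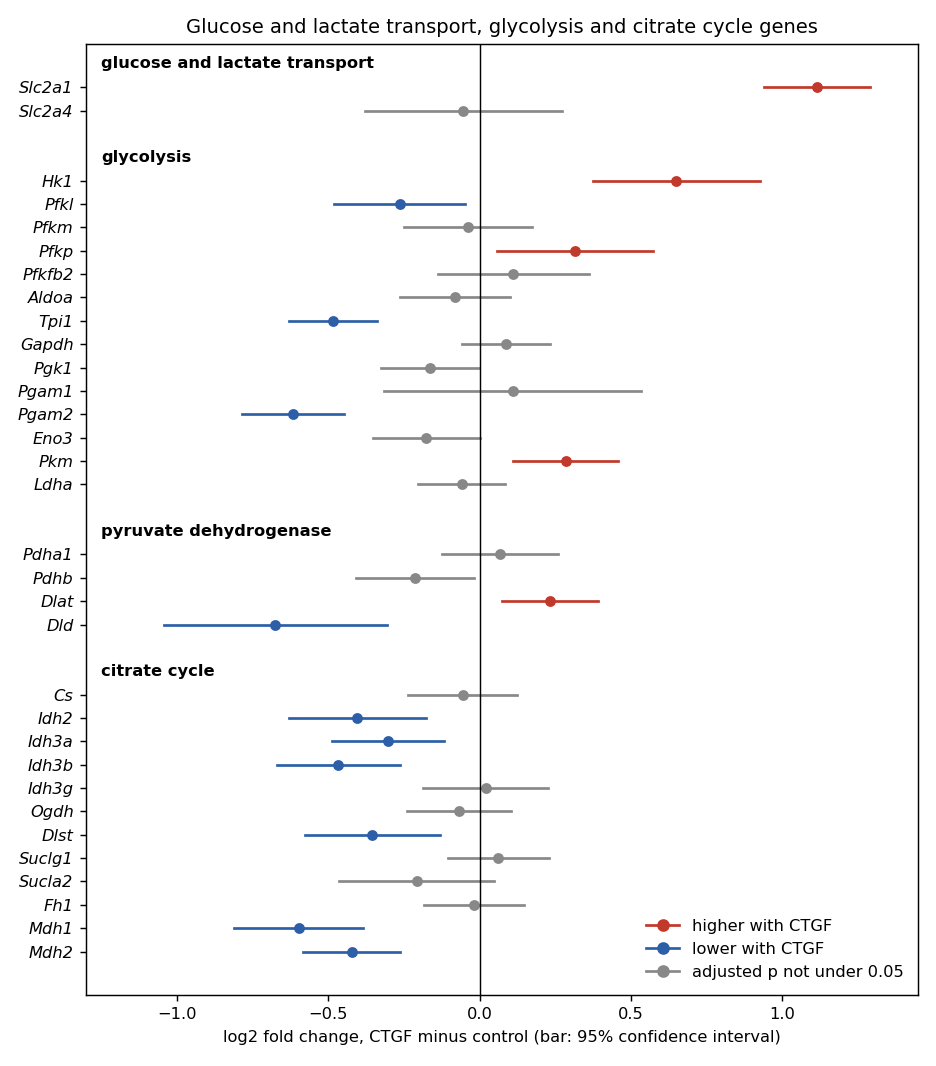
Log2 fold change (x axis, CTGF minus control) of each of the 32 measured genes, with its 95% confidence interval, grouped by role. Slc2a1 stands far to the right at 1.11, and in the citrate cycle 10 of 12 points lie left of 0. Of these, Sucla2 was detected on 2 of 6 CTGF arrays and 6 of 6 control arrays.

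The medians differed by role, and that of the citrate cycle includes Sucla2, which was near background with CTGF. The median log2 fold change was 0.53 for the 2 measured transporters, -0.05 for 14 glycolysis genes, -0.07 for 4 pyruvate dehydrogenase genes and -0.26 for 12 citrate cycle genes, against 0.03 for all genes. These values compare a gene with the rest of its array, since quantile normalization gives every array the same distribution. Without normalization between arrays the median of all genes was 0.35, under median scaling it was 0.31, and under cyclic loess it was -0.01. Rises made up 53.7% of all calls with quantile normalization, 86.3% with none, 84.0% with median scaling and 46.3% with cyclic loess. Relative to these shifts the citrate cycle median, at 0.03 without normalization and -0.03 under median scaling, stayed below that of all genes. Its falls were not called against 0 under those scalings, except for 1 gene under median scaling.

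**Figure D2:**
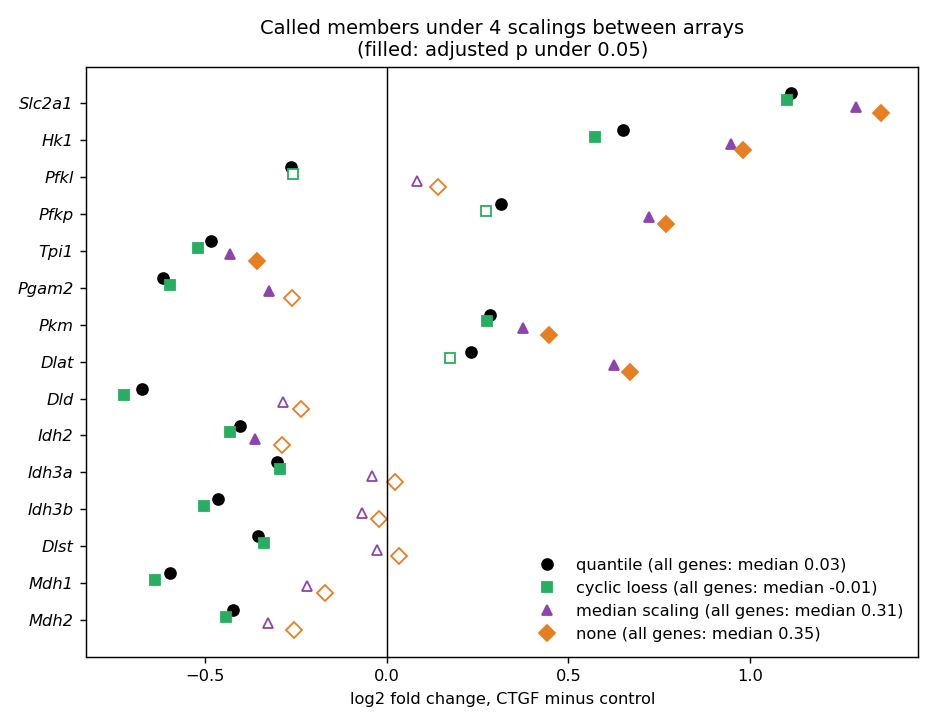
Log2 fold change (x axis, CTGF minus control) of the 15 called genes under 4 scalings between arrays, with filled symbols where the adjusted p was under 0.05. Slc2a1, Hk1, Pkm and Tpi1 are filled under all 4, while the points of the citrate cycle genes move towards 0 or past it under median scaling and without normalization.

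Slc2a1 encodes GLUT1, the basal glucose transporter. Its log2 intensities were 12.43, 12.64 and 12.79 (lowest, median and highest of 6) with CTGF and 11.37, 11.52 and 11.63 in controls. Every CTGF array lay above every control array. The rise was 1.11 ± 0.08 on the log2 scale (SE, limma adjusted p = 4.6e-08), and it was 1.36 without normalization and 1.29 under median scaling. Slc2a4 encodes GLUT4, the insulin-responsive transporter of muscle and fat. It had 6.76, 6.99 and 7.64 with CTGF and 6.69, 7.19 and 7.44 in controls, so its groups overlapped over nearly their whole range. Its log2 fold change was -0.05 ± 0.15, with a 95% interval from -0.38 to 0.27. The lactate and pyruvate carriers Slc16a1 and Slc16a3 (MCT1 and MCT4) were not above the detection limit.

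The 250 bases before the start of Slc2a1 are shown with those of Mdh1 and Mdh2, the 2 malate dehydrogenase genes, since these 3 genes had groups that did not overlap and went in opposite directions. They are from RefSeq on GRCm38.p6, 5′ to 3′ on the strand of the gene: Slc2a1 at chr4:119108495-119108744 (plus strand), Mdh1 at chr11:21571935-21572184 (minus strand) and Mdh2 at chr5:135778399-135778648 (plus strand). Capitals mark matches, on either strand, to the core of the hypoxia response element (ACGTG or GCGTG) and to the GC box (GGGCGG).
Slc2a1: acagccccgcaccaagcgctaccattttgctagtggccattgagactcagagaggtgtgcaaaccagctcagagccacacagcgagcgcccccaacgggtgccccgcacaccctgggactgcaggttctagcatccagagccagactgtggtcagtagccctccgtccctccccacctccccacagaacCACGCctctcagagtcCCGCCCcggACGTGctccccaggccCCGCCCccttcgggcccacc
Mdh1: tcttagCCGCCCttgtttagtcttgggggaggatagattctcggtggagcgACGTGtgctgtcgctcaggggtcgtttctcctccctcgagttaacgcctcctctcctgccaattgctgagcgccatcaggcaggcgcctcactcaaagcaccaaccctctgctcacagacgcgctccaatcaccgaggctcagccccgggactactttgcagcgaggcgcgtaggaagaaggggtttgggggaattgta
Mdh2: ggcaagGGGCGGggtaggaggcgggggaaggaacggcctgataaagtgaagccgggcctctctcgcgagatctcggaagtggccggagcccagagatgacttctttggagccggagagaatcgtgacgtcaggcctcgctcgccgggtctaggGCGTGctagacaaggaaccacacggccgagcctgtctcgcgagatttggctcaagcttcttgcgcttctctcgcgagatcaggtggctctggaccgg
Slc2a1 has 2 matches to the hypoxia core and 2 to the GC box, and Mdh1 and Mdh2 have 1 of each. Over the 38 genes of the 40 with a window, 76.3% hold the hypoxia core in at least 1 window and 65.8% the GC box. Among the tested genes with a window the shares were 62.6% and 65.1%, and among all 26994 genes with a window 41.5% and 35.3%. The E-box CACGTG, which contains ACGTG and so overlaps the hypoxia core, was in 6 of the 38 genes, or 15.8%, against 10.2% of tested genes. The estrogen-related receptor site TNAAGGTCA was in none of the 38, against 0.814% of tested genes. A gene can have several windows, and a match describes letters only.

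In the first steps of glycolysis Hk1 rose and the phosphofructokinase genes moved in different directions. Hk1 encodes hexokinase 1, which phosphorylates glucose. Its log2 intensities were 6.30, 6.60 and 6.81 with CTGF and 5.35, 6.01 and 6.16 in controls. The groups did not overlap, although the lowest control array stood well below the rest. The rise was 0.65 ± 0.13 on the log2 scale (SE, limma adjusted p = 0.00077), a 1.57-fold rise. The gene's other probe, detected on 6 of 6 CTGF and 4 of 6 control arrays, gave 0.63. Without background correction the rise was 0.38, still called.

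Phosphofructokinase commits the sugar to glycolysis, and its liver (Pfkl), muscle (Pfkm) and platelet (Pfkp) subunits were all measured. Pfkm had 12.55, 12.82 and 12.97 with CTGF against 12.62, 12.89 and 13.12 in controls, a log2 fold change of -0.04 ± 0.10 that was not called. Pfkp had 7.99, 8.25 and 8.58 with CTGF and 7.60, 7.96 and 8.26 in controls, and rose by 0.32 ± 0.12 (limma adjusted p = 0.0443). Pfkl had 9.94, 10.14 and 10.31 with CTGF and 10.24, 10.36 and 10.78 in controls, and fell by 0.26 ± 0.10 (limma adjusted p = 0.0446). Both calls were close to the threshold and their groups overlapped. Pfkl lost its call when any of control 1, 2, 3 or 5 or CTGF 1, 3, 4 or 6 was left out (adjusted p up to 0.0954), and its sign turned to 0.14 without normalization and 0.08 under median scaling. Pfkp lost its call without any of control 3 to 6 or CTGF 1, 2, 3, 5 or 6 (adjusted p up to 0.0985). Pfkfb2, a cardiac enzyme that makes the phosphofructokinase activator fructose 2,6-bisphosphate, had a log2 fold change of 0.11 ± 0.12 and was not called. Its other probe was detected on 6 of 6 CTGF arrays and not above background on any control array, which gives at least 1.13-fold higher. That probe passed the detection limit through the CTGF arrays alone, so its difference had to be in this direction and supports nothing. Without normalization and under median scaling the brightest probe of Pfkfb2 had 0.38 and 0.35 and was called higher.

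In the middle and lower steps, Tpi1 and Pgam2 fell and Pkm rose, while the remaining measured genes were not called. Tpi1 encodes triosephosphate isomerase, which interconverts the 2 triose phosphates. It had 12.81, 12.95 and 13.01 with CTGF and 13.34, 13.44 and 13.49 in controls. The groups lay well apart, and the level fell by 0.48 ± 0.07 (SE, limma adjusted p = 3.5e-05). Its other probes gave -0.64 and, not called, -0.07. Pgam2 encodes the muscle form of phosphoglycerate mutase, which moves the phosphate within phosphoglycerate. It had 10.59, 10.76 and 10.96 with CTGF and 11.26, 11.36 and 11.47 in controls. Every CTGF array was below every control array, and the level fell by 0.62 ± 0.08 (SE, limma adjusted p = 1.5e-05). Without normalization the change was -0.26 and not called. Pkm encodes the muscle pyruvate kinase, which makes pyruvate and ATP. It had 13.01, 13.24 and 13.38 with CTGF and 12.81, 12.95 and 13.07 in controls, so the groups overlapped only at their edges, and it rose by 0.28 ± 0.08 (SE, limma adjusted p = 0.0098). Its other probe, detected on 5 of 6 CTGF and 3 of 6 control arrays, gave 0.47.

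The 6 measured glycolysis genes that remain were not called. Gapdh, whose enzyme makes NADH, had a log2 fold change of 0.09, with a 95% interval from -0.06 to 0.23. Aldoa, the muscle aldolase that cleaves fructose bisphosphate, had -0.08, and Ldha, the lactate dehydrogenase subunit common in muscle, had -0.06. The widely expressed mutase gene Pgam1 had 0.11 ± 0.20. Pgk1, the first ATP-yielding enzyme, and Eno3, the muscle enolase, had -0.16 and -0.18 with adjusted p of 0.0924 and 0.0939 in limma. Both were called lower with a trended robust variance, and Eno3 also under cyclic loess, at -0.22. Probes for glycolytic enzymes can also bind transcripts of their pseudogene copies, and probe sequences were not used here.

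**Figure D3:**
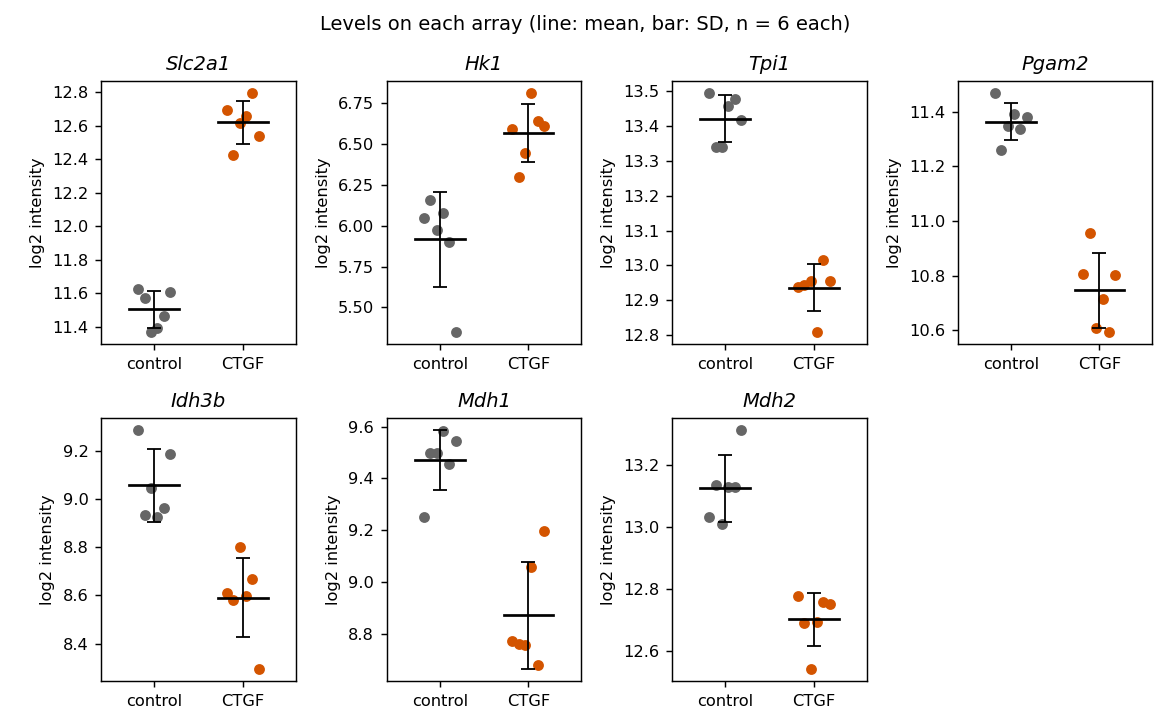
Log2 intensity (y axis) on each array for the 7 genes whose control and CTGF groups did not overlap, with the mean and SD of the 6 arrays of each group. Slc2a1 and Hk1 are higher with CTGF, and Tpi1, Pgam2, Idh3b, Mdh1 and Mdh2 are lower.

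The pyruvate dehydrogenase complex links glycolysis to the citrate cycle, and its 4 subunit genes gave 1 rise, 1 fall and 2 genes not called. Dld encodes dihydrolipoamide dehydrogenase, a subunit that this complex shares with the oxoglutarate dehydrogenase complex. It had 8.04, 8.31 and 8.96 with CTGF and 8.47, 9.19 and 9.35 in controls. The groups overlapped, and the level fell by 0.68 ± 0.17 (SE, limma adjusted p = 0.0048). Dlat encodes the acetyltransferase core of the complex. It had 8.01, 8.08 and 8.17 with CTGF against 7.75, 7.82 and 8.06 in controls, and rose by 0.23 ± 0.07 (SE, limma adjusted p = 0.0177). Under cyclic loess the rise of Dlat was 0.17 and not called. Pdha1 and Pdhb encode the alpha and beta subunits of the decarboxylase. Pdha1 had 0.07 ± 0.09. Pdhb had -0.21 ± 0.09 (limma adjusted p = 0.0698) at its brightest probe and -0.52 ± 0.14, called, at its other probe. The brightest probe of Pdhb was called lower without control 6, at -0.27. With all arrays it was called lower under 5 other settings, among them no background correction at -0.20 and array weights at -0.26. The authors' normalized values, another of the 5, were nearly the same as those without background correction. Dld had -0.24 without normalization and -0.29 under median scaling, not called in either.

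In the citrate cycle 6 of 12 genes fell and none rose, and 10 of 12 had a negative log2 fold change. Of these 10, Sucla2 was above background on 2 of 6 CTGF arrays and 6 of 6 control arrays, so the detection limit favoured its sign. The share called, 50%, was near the background of 46.6%, and the background for falls alone was 21.6%. The summed linear intensity of the 12 genes was 60901 to 65462 with CTGF and 68288 to 73173 in controls, with no overlap. Such a sum weighs the brightest genes most, among them Idh2 and Mdh2, which fell, and Idh3g and Suclg1, which were not called. The sum was taken on quantile-normalized values only. Both malate dehydrogenases, which interconvert malate and oxaloacetate, fell. Mdh1, the cytosolic form, which works in the malate-aspartate shuttle, had 8.68, 8.77 and 9.20 with CTGF and 9.25, 9.50 and 9.58 in controls. The highest CTGF array lay just under the lowest control, and the level fell by 0.60 ± 0.10 (SE, limma adjusted p = 0.00017). Mdh2, the mitochondrial form, had 12.54, 12.72 and 12.78 with CTGF and 13.01, 13.13 and 13.32 in controls. The groups were clearly separate, and the level fell by 0.42 ± 0.08 (SE, limma adjusted p = 0.00032). The other probe of Mdh1 gave -0.47 and was not called. Without normalization Mdh1 and Mdh2 had -0.17 and -0.26, and under median scaling -0.22 and -0.33, none of them called.

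Of 4 measured isocitrate dehydrogenase genes, whose enzymes make oxoglutarate from isocitrate, 3 fell. Idh3b, a subunit of the NAD-dependent enzyme, had 8.29, 8.60 and 8.80 with CTGF and 8.92, 9.01 and 9.29 in controls. Its groups did not overlap, and the level fell by 0.47 ± 0.10 (SE, limma adjusted p = 0.0010). Idh3a, the catalytic subunit, had 10.94, 11.13 and 11.30 with CTGF and 11.26, 11.46 and 11.57 in controls. It fell by 0.30 ± 0.09 (limma adjusted p = 0.0097), and its other probe gave -1.15, so the size of this fall differed between probes. Idh3g, the third subunit, had 0.02 ± 0.10 and was not called. Idh2, the mitochondrial NADP-dependent enzyme, had 12.97, 13.22 and 13.49 with CTGF and 13.40, 13.59 and 13.86 in controls, and fell by 0.40 ± 0.11 (limma adjusted p = 0.0058). Without normalization Idh3b, Idh3a and Idh2 had -0.02, 0.02 and -0.29 and were not called, and under median scaling Idh3b and Idh3a had -0.07 and -0.04 and were not called.

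Of the oxoglutarate dehydrogenase complex, the succinyltransferase gene Dlst fell and the dehydrogenase gene Ogdh was not called. Dlst had 10.22, 10.44 and 10.71 with CTGF and 10.56, 10.76 and 11.12 in controls, a log2 fold change of -0.35 ± 0.10 (SE, limma adjusted p = 0.0117). Its other probes gave -0.26, called, and 0.18, not called, and the mean over its probes, -0.15, was not called. Dlst had 0.03 without normalization and -0.03 under median scaling, not called. Ogdh had -0.07 ± 0.08. Cs, the citrate synthase that starts the cycle, had -0.06 ± 0.09, and Suclg1, the alpha subunit of succinyl-CoA ligase, had 0.06 ± 0.08. Sucla2, the ATP-specific beta subunit, was not called, with 4.61, 4.79 and 5.29 with CTGF and 4.91, 5.12 and 5.33 in controls. It was detected on 2 of 6 CTGF arrays and 6 of 6 control arrays, so it passed the detection limit with few CTGF arrays above background and its difference is not measured on both sides. Fh1, fumarate hydratase, had -0.02 ± 0.08 at its brightest probe and -0.83 ± 0.16 at its other probe, which was called.

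Where a gene had several probes these could differ in size. Of 49 probes 8 were higher and 14 lower, counting among the higher the Pfkfb2 probe that was above background with CTGF alone, where the background over all 15038 probes was 23.8% higher and 19.7% lower. Of 13 genes with over 1 probe, all probes of 10 had the same sign, none had probes called in opposite directions, and 7 had called and uncalled probes side by side. The differences between probes of Idh3a, Fh1, Tpi1, Dlst and Pdhb were among those larger than their standard errors. Which transcripts each probe binds was not tested.

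**Figure D4:**
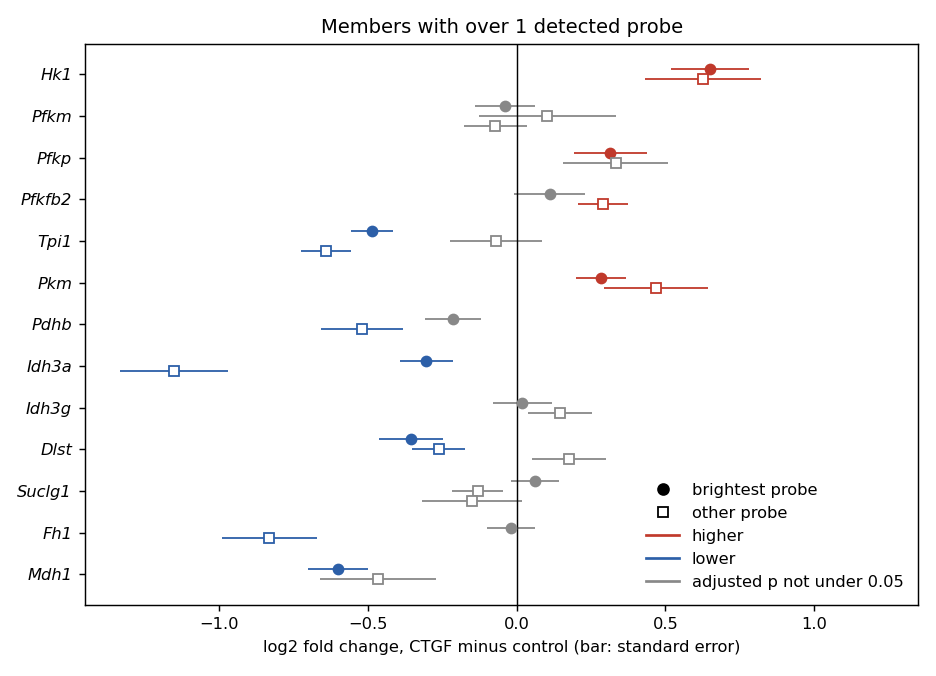
Log2 fold change with its standard error (x axis, CTGF minus control) for each detected probe of the 13 genes with over 1 such probe. Filled circles are the brightest probes, which represent the genes, and open squares the others, with the probes of Idh3a, Fh1 and Tpi1 farthest apart.

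Ratios of related genes on the same array ask whether paired isozymes or subunits changed unequally. Of 12 pairs, 6 had both genes measured, and p-values were adjusted over these 6. The ratio of Slc2a1 to Slc2a4 rose by 1.17 ± 0.20 on the log2 scale (SE, n = 6 each), with a range of 4.89 to 6.03 with CTGF and 4.08 to 4.78 in controls. The groups did not overlap, and the two-sided exact permutation p was 0.00216, the smallest this exact test can give, or 0.0130 adjusted. The ratio of Pgam1 to Pgam2 rose by 0.73 ± 0.22 (exact permutation p = 0.0130, adjusted 0.0390), from -6.35 to -5.19 in controls to -5.57 to -4.69 with CTGF, with overlap. It was no longer past the threshold without any of control 3, 4 or 6 or CTGF 2, 5 or 6 (adjusted p up to 0.0714). The other 4 pairs were not past the threshold: Idh3b to Idh3a at -0.16 ± 0.06 (adjusted exact permutation p = 0.0606), Pfkp to Pfkm at 0.35 ± 0.18 (0.104), Mdh1 to Mdh2 at -0.18 ± 0.10 (0.119) and Pfkl to Pfkm at -0.23 ± 0.16 (0.186). Control 1, control 2 and CTGF 4 each decided such a ratio: Pfkp to Pfkm passed without control 1 or control 2, at 0.44 and 0.45, and Idh3b to Idh3a without CTGF 4, at -0.20.

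**Figure D5:**
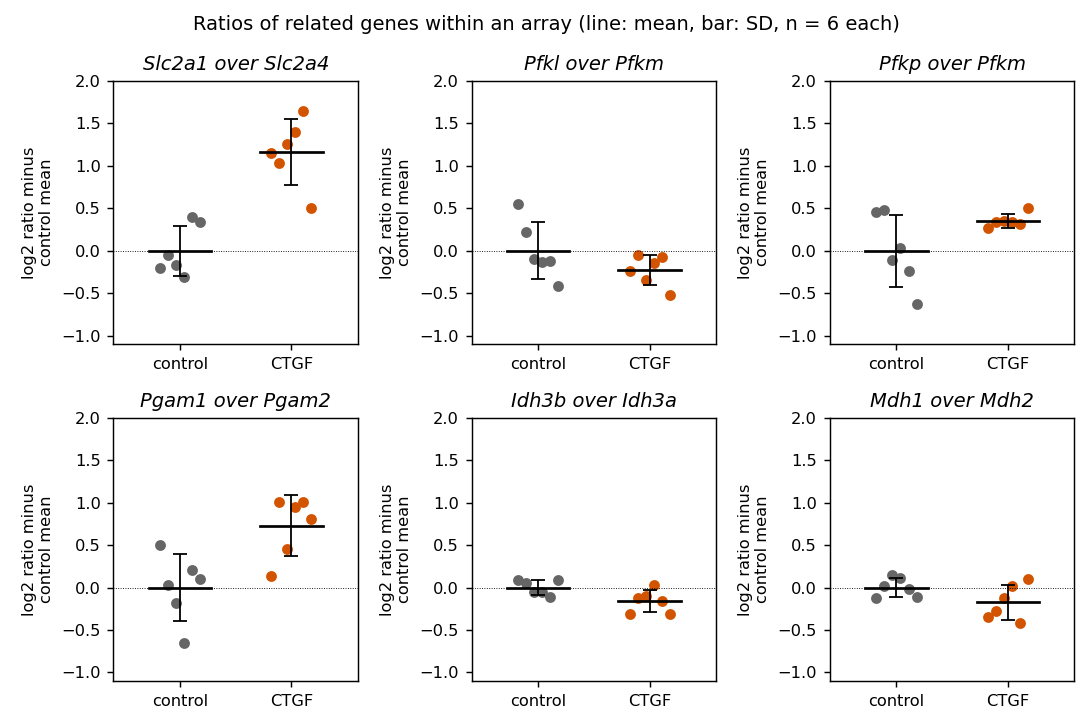
Log2 ratio of paired genes on each array, minus the control mean (y axis), for control and CTGF arrays, with the mean and SD of 6 arrays. The ratio of Slc2a1 to Slc2a4 is separate between the groups, and in the remaining panels they overlap.

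Other genes of the pathways were described from lists of their own, to be read against the background of 46.6% of all genes called. Of 3 other carriers measured none was called. In the list of other glycolysis isozymes and regulators 4 genes were measured. Pgam5, listed by its name though it encodes a phosphatase, rose by 0.49 ± 0.07. The ADP-dependent glucokinase gene Adpgk fell by 0.42 ± 0.13. Among 8 measured regulators and partners of pyruvate dehydrogenase, the phosphatase subunit genes Pdp2 and Pdpr rose by 0.74 ± 0.18 and 0.29 ± 0.07, and the kinase gene Pdk2, whose product inhibits the complex, fell by 0.38 ± 0.11. Without normalization Pdk2 had 0.05 and Adpgk -0.008, and neither was called, while Pgam5, Pdp2 and Pdpr were higher at 0.95, 1.19 and 0.74. Of 10 other citrate cycle and malate-aspartate genes only Sdhd, a membrane anchor of succinate dehydrogenase, was called, at -0.73 ± 0.16, and without normalization it had -0.28 and was not called.

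Of 10 glycogen genes 3 fell and none rose, or 30% called against the background of 46.6%: Gyg, the glycogenin primer, by 0.58 ± 0.10, Pygm, the muscle phosphorylase, by 0.32 ± 0.12, and Ugp2, which makes UDP-glucose, by 0.28 ± 0.07. Without normalization none of the 3 was called, with Gyg at -0.17, Pygm at 0.10 and Ugp2 at 0.13. Pygm also lost its call without any of control 1, 5 or 6 or CTGF 3, 4 or 5 (limma adjusted p up to 0.0771). Of 5 pentose phosphate genes 3 fell and 1 rose, with Pgls at -0.51 ± 0.11, Tkt at -0.47 ± 0.13 and Rpe at -0.36 ± 0.09, but without normalization Pgls, Tkt and Rpe had -0.08, -0.05 and 0.05 and were not called. Of 15 regulators of glucose uptake and glycolysis 4 rose and 3 fell, or 46.7% called, near the background. Hif1a, the hypoxia-inducible factor subunit, rose by 0.87 ± 0.14, from 5.01, 5.30 and 5.81 in controls to 5.96, 6.25 and 6.47 with CTGF, with no overlap. Without background correction and with the mean of its probes the rise of Hif1a was 0.44, still called. Txnip, whose product lowers glucose uptake, fell by 0.63 ± 0.11, from 11.21, 11.34 and 11.43 in controls to 10.35, 10.80 and 10.92 with CTGF, again with no overlap. Outside the rule for named genes, and chosen after their values were seen, were the rise of Taldo1, the pentose phosphate transaldolase, the rises of Myc, Ppargc1b and Tbc1d4 and the fall of Tbc1d1. Irs2, an adaptor of the insulin receptor, fell by 0.66 ± 0.21 with groups that overlapped. Without normalization Txnip and Irs2 had -0.27 and -0.24 and were not called.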

How the data were processed

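Total RNA of 12 cultures was measured on single-colour Illumina bead arrays. Per the file headers, the authors deposited linear, non-normalized intensity per probe together with a detection p-value. Their normalized intensity values, also deposited, served as an alternative. Scanner software is not given in the sources used here. Groups came from the sample titles.

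The neqc function of limma 3.58.1 (R 4.3.3) corrected background through the detection p-values, with an offset of 16, then applied quantile normalization and log2. This offset makes fold changes of dim genes smaller. The detection limit (p under 0.05 on at least 6 of 12 arrays) kept 15038 probes. The platform annotation gives 34885 of 45281 probes 1 symbol, 18 several and 10378 none. Symbols were looked up in RefSeq's gene table for GRCm38.p6 by Entrez identifier (34807 probes) or accession (11), 10 were updated and 67 stayed as annotated. The files name no build, so only promoter windows carry coordinates. The brightest kept probe stood for its gene. Two-sided lmFit and eBayes tests of CTGF against control were adjusted by Benjamini-Hochberg over 8905 genes; at 0.05, 2229 were higher and 1924 lower. SE is limma's standard error. Ratios of paired genes were tested with two-sided exact permutation tests. The fit was tested on simulated data.

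The genes, lists and pairs were chosen with earlier results of these data known, and all 40 genes were named by rule, with up to 3 called genes per further list and up to 2 per marker list. Alternatives changed the background, scaling, detection filter, probe summary, array weights, variance model or threshold, added a replicate block, or left out 1 array.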

Additional observations from a re-analysis of the deposited data

Results flagged for a closer look

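In 6 of 64 groups of 6 arrays the highest or lowest array stood apart from the others by Dixon's criterion at the 95% level, where chance flags about 1 in 20 groups. All values are log2 intensities. Control 6 was lowest for Hk1 at 5.35, with the next array at 5.90. Control 1 was highest for Pfkl at 10.78, with the next at 10.38, and highest for Suclg1 at 13.99, with the next at 13.73. CTGF 4 was lowest for Pfkm at 12.55, with the next at 12.81, and lowest for Tpi1 at 12.81, with the next at 12.94. CTGF 3 was lowest for Mdh2 at 12.54, with the next at 12.69. Without control 6 the rise of Hk1 was still called, and without control 1 the fall of Pfkl was not (limma adjusted p = 0.0888).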

How the results depend on the processing

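Of the 15 called genes, Slc2a1, Hk1, Tpi1 and Pkm were called in the same direction under all 26 other settings. The settings are not all separate checks. The authors' values and no background correction gave nearly the same values, with 2270 genes higher and 1970 lower in each. Over the 32 genes, 365 of 384 values with an array left out had the same call. Without normalization between arrays or under median scaling 46 of 64 did. An uncalled value that stayed uncalled counts here whatever its sign, so these counts do not show that directions held. Scaling was the main limit. Without normalization and under median scaling Pfkl turned to 0.14 and 0.084, Pdk2 to 0.049 and 0.0054, Pygm to 0.10 and 0.052, Ugp2 to 0.13 and 0.080 and Rpe to 0.055 and 0.00077, and without normalization Idh3a turned to 0.023 and Dlst to 0.032. The cause was not tested.

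Calls among the 32 genes were 5 higher and 10 lower. Without normalization 1 was lower, under median scaling 3, and under cyclic loess or a threshold of 0.01, 3 were higher. Lower glycolysis genes numbered 1 without normalization and 5 with a trended robust variance. Higher pyruvate dehydrogenase genes numbered 0 under cyclic loess and at 0.01, and lower ones 0 without normalization and under median scaling, and 2 without background correction, with the authors' values, with the mean of a gene's probes, with array weights and with the trended variance. Lower citrate cycle genes numbered 0 without normalization and 1 under median scaling. Higher probes numbered 13 without normalization and under median scaling, 5 under cyclic loess, without a detection filter and with detection on all 12 arrays, and 2 at 0.01, and lower probes 3 without normalization and 6 under median scaling. Medians without normalization and under median scaling were 0.35 and 0.31 for all genes, 0.12 and 0.049 for the 32 genes, 0.85 and 0.80 for transport, 0.12 and 0.051 for glycolysis, 0.22 and 0.15 for pyruvate dehydrogenase, and 0.028 and -0.034 for the citrate cycle. Without a detection filter they were 0.0049 for transport and 0.036 for glycolysis.

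Among the other lists, 1 carrier was lower under cyclic loess. Other glycolysis genes, a list that holds Pgam5, gave 2 higher without normalization, under median scaling, with array weights and with the replicate block. They gave 0 lower without normalization, under median scaling and at 0.01. Pyruvate dehydrogenase regulators gave 6 higher without normalization, and 0 lower there, under median scaling and at 0.01. Other citrate cycle genes gave 1 higher without normalization, with array weights and with the trended variance, 0 lower without normalization and under median scaling, and 2 lower under cyclic loess and with the mean of probes. Glycogen genes gave 1 higher without normalization, and glycogen and pentose phosphate genes gave 0 lower without normalization and under median scaling. Regulators of uptake gave 9 higher and 0 lower without normalization and under median scaling, and 1 lower at 0.01.

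The ratio of Pfkl to Pfkm passed with the mean of probes (-0.26). Pfkp to Pfkm passed without normalization (0.65), under median scaling (0.68) and with the mean of probes (0.33). Pgam1 to Pgam2 missed the threshold without normalization (0.63), and Idh3b to Idh3a passed under cyclic loess (-0.21) and had 0.26, not past the threshold, with the mean of probes. Ratios were not run with array weights, the trended variance or the threshold of 0.01.

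The replicate numbers showed no pairing. Deviations of same-numbered arrays correlated between -0.05 and 0.03, and 0 of 6 CTGF arrays were closest to the control of their number. CTGF 1 correlated at up to 0.47 with a control of another number, and whether arrays share another grouping was not tested. With the replicate block 2102 genes were higher and 1830 lower, and of the 15 calls only Pfkp was lost (limma adjusted p = 0.0867). The paired exact sign-flip test, whose smallest p is 0.03125, left Slc2a1 to Slc2a4 (1.17) and Pgam1 to Pgam2 (0.73) at an adjusted exact p of 0.141.

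With each array left out in turn, 4 to 5 of the 32 genes were higher and 9 to 11 lower, with 2 to 3 higher and 2 to 3 lower in glycolysis, 1 to 2 lower in pyruvate dehydrogenase and 6 to 7 lower in the citrate cycle. Probes numbered 6 to 8 higher and 13 to 15 lower. Pgam1 to Pgam2 ranged from 0.59 to 0.84, Pfkp to Pfkm from 0.23 to 0.45 and Idh3b to Idh3a from -0.20 to -0.13. Other lists ranged as follows: 0 to 1 carriers lower, 1 to 2 other glycolysis genes higher, 2 to 3 dehydrogenase regulators higher, 0 to 1 other citrate cycle genes higher and 1 to 2 lower, 0 to 1 glycogen genes higher and 2 to 3 lower, and 3 to 4 uptake regulators higher and 2 to 3 lower. The files do not give bead numbers, and dim probes such as those of Sucla2, Pfkfb2 and Pgam1 lie near background.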
